A study of Homo sapiens with 6 samples.

Results

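The serotonin and neuroendocrine granule genes are a set of 10 genes for the making and uptake of serotonin, the cargo and processing of secretory granules, and the control of endocrine cell fate. They are DDC, SLC6A4, CHGA, CHGB, VGF, SCG2, SCG5, PCSK1N, PDX1 and ISL1. Of the 10, 8 had an array feature with that gene symbol and 2, SCG2 and SCG5, are not analysed here, among 12562 genes named in all. The members were chosen by earlier results of the same contrast, the difference between FOXC2 and pBabe cultures, so their differences are given as a description without a test. The data were normalized intensities on 6 single-colour arrays of SW480, an established human colorectal cancer line. One group, called FOXC2, had received a retroviral construct for ectopic FOXC2, a forkhead transcription factor, and the other, called pBabe, the control vector alone. Each group held 3 arrays, 1 per separate culture, and both were grown in medium with 10% serum and selected over 3 to 5 days, with puromycin at 0.5 μg/mL. Confluence was given as 90% for both groups. The labels name neither separate transductions nor clones, so the spread between arrays covers cultures and may not cover selected populations.

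Enteroendocrine cells are rare cells of the gut lining that store amines and peptide hormones in dense-core granules and release them on stimulation. Enterochromaffin cells, the serotonin makers among them, turn tryptophan into 5-hydroxytryptophan with tryptophan hydroxylase and then into serotonin with DDC, aromatic L-amino acid decarboxylase. SLC6A4 is the plasma membrane transporter that takes serotonin back into cells. Chromogranins and secretogranins are acidic proteins that condense in the granule and are cut into peptides by prohormone convertases. PDX1 and ISL1 are homeodomain factors of pancreatic and intestinal endocrine cells.

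The introduced gene checked the labels. FOXC2 intensities were 8777, 8262 and 8344 in FOXC2 cultures and 2319, 2323.5 and 2818 in pBabe cultures, and the groups did not overlap. Keratins KRT8 and KRT18 were bright on all arrays, and 8 of 12 markers of colorectal epithelium had a feature, of which 5 rose and 1 fell, with a summed intensity of 73348 to 77636 in FOXC2 cultures and 67798 to 72957 in pBabe cultures. KRT8 and KRT18 made up most of that sum, and the fall of KRT18 did not pass without any 1 of the 6 arrays (limma adjusted p 0.0672 to 0.102). VIL1, villin of the brush border, rose 8.62-fold, and EPCAM, an epithelial adhesion molecule, rose 5.08-fold (limma adjusted p 3.5e-05 for each), folds in the range of the members described below. For comparison, 14.1% of all genes passed the limma test as higher in FOXC2 cultures and 14.3% as lower. KRT20, CDX1, CEACAM5 and GPA33 are not analysed here. The lowest intensity in the table was 50.0016. In a culture, more cells that express a gene and more RNA per cell cannot be told apart on these arrays.

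Promoter sequence was taken from RefSeq, GRCh38.p14, where 7 of the 10 members had a window from 250 bases before to 50 bases after a gene start, 8 windows in all, because DDC had 2 starts. The stretches below are those of measured members that hold an element searched for. These elements were the cyclic AMP response element with the letters TGACGTCA and its TGACG core. The TATA box with the letters TATAA and the forkhead core with the letters GTAAANA were also searched for. SCG5, which had no array feature with that gene symbol, also held TGACG and is not shown. Capitals mark those letters on either strand. Each line holds the 120 bases just before the start, read 5′ to 3′ on the gene's own strand.
CHGA, chr14:92923030-92923149, plus strand: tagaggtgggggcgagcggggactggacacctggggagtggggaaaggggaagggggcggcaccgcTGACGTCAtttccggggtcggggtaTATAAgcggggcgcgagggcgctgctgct
VGF, chr7:101165570-101165689, minus strand: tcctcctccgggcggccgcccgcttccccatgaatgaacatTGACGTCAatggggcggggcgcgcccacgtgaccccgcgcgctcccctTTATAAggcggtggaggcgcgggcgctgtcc
SLC6A4, chr17:30235698-30235817, minus strand: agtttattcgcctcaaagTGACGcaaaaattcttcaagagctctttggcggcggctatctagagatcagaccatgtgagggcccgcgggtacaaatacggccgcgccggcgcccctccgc
ISL1, chr5:51383328-51383447, plus strand: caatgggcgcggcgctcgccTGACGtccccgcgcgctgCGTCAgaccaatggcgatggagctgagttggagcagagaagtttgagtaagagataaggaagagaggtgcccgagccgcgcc
DDC, downstream start, chr7:50561072-50561191, minus strand: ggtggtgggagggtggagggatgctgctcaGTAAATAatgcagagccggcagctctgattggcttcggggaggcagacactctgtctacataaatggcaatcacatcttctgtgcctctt

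The full element TGACGTCA stood in 2 of the 7 members, or 2 of their 8 windows. It lay in CHGA at position -54 and in VGF at position -79, counted to its first base from the gene start. Of 35116 windows of the same length for all genes, 1.85% held it. Both of those promoters also held TATAA, which 20.4% of all windows held. In CHGA it began at -29, and in VGF it lay on both strands around -30. The TGACG core is contained in the full element and was counted with it. It stood in 5 of the 7 members (CHGA, VGF, SLC6A4, ISL1 and SCG5), or 5 of 8 windows, against 24.6% of all windows. The windows of CHGA, VGF, SLC6A4 and ISL1 held 69.3%, 67.7%, 70% and 66.7% G and C, and that of SCG5 58%. The median over all windows was 58.7%, and the shares were not matched for this content. GTAAANA stood in 1 window, at position -90 of the downstream start of DDC, against 10.8% of all windows, and neither SLC6A4 nor CHGA held it in this window. These matches describe letters only.

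The serotonin genes came first in size of difference. DDC had intensities of 1090.3, 844 and 1114 in FOXC2 cultures, against 98.9, 68.9 and 109 in pBabe cultures. All 3 FOXC2 arrays lay far above all pBabe arrays, and the lowest FOXC2 array was 7.72-fold above the highest pBabe array. The fold was 11.1 (95% confidence interval 8.01 to 15.4), and the log2 difference of 3.48 ± 0.199 (SE) ranked 2 among the 12562 genes. SLC6A4 had intensities of 945, 931 and 977 in FOXC2 cultures, against 107, 144 and 100.25 in pBabe cultures. Its FOXC2 arrays were close together, with an SD of 0.0361 on the log2 scale, while the pBabe arrays spread more, with an SD of 0.280. The fold was 8.23 (6.46 to 10.5), rank 6. The pBabe values of both genes lay near the lowest value of the table, and no detection calls were used, so these folds may be inexact.

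Of the granule cargo genes, the chromogranins differed most. CHGA, chromogranin A, the general serum and tissue marker of neuroendocrine cells, had intensities of 1922, 1910.2 and 1910.8 in FOXC2 cultures, against 206, 364 and 310.5 in pBabe cultures. The FOXC2 arrays were almost equal, with an SD of 0.00484 on the log2 scale, and the pBabe arrays had an SD of 0.424. The fold was 6.70 (4.80 to 9.36), rank 13, and may be inexact because the pBabe arrays were dim and spread. CHGB, chromogranin B, had intensities of 3213, 2798 and 2788 in FOXC2 cultures, against 616, 680.3 and 597 in pBabe cultures. Its fold was 4.64 (3.92 to 5.50), rank 34, and the pBabe arrays of CHGB were well clear of the lowest value of the table, so its fold does not rest on values at that edge.

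VGF, a secretogranin-like precursor of several neuroendocrine peptides, was bright in both groups, at 16578, 13883 and 15407 in FOXC2 cultures, against 7583, 9686 and 7843 in pBabe cultures. The groups did not overlap, though the lowest FOXC2 array was only 1.43-fold above the highest pBabe array. Its fold was 1.83 (1.48 to 2.26), rank 572, so VGF differed far less than the chromogranins. PCSK1N, which encodes proSAAS, an inhibitor of prohormone convertase 1, had intensities of 4108, 4504 and 3801 in FOXC2 cultures, against 3785, 3979.5 and 4569.7 in pBabe cultures. Here the groups overlapped fully. The fold was 1.01 (0.836 to 1.21), beside the 1.83 of VGF.

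The pair of homeodomain factors differed in opposite directions. PDX1 had intensities of 1128, 968 and 1098 in FOXC2 cultures, against 172, 204 and 157 in pBabe cultures. Its groups were well apart, with a fold of 6.01 (4.89 to 7.40), rank 17. PDX1 was dim in pBabe cultures, so this fold may be inexact too. ISL1 had intensities of 80.6, 188 and 83.7 in FOXC2 cultures, against 206.5, 267 and 345 in pBabe cultures. All 3 FOXC2 arrays lay below all pBabe arrays, but the gap was 1.10-fold, because FOXC2 replicate 2 stood above the other two FOXC2 arrays. The log2 difference of ISL1 was -1.30 ± 0.355 (SE), and -1.70 without FOXC2 replicate 2. Its FOXC2 SD of 0.690 on the log2 scale was the highest of any member in either group. ISL1 was dim on every array, and its lower level in FOXC2 cultures lay near the lowest value of the table.

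**Figure D1:**
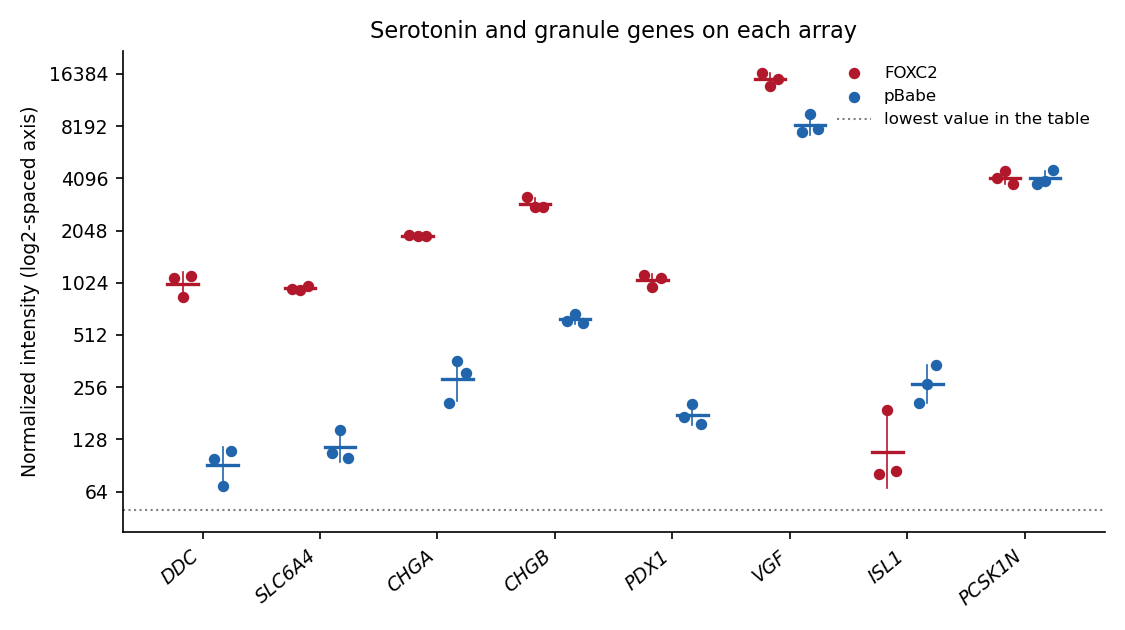
Normalized intensity of each measured member on every array, on a log2-spaced axis, with FOXC2 cultures in red to the left of pBabe cultures in blue. Horizontal bars are means and vertical bars 1 SD of log2 values (n = 3 arrays per group). DDC, SLC6A4, CHGA, CHGB, PDX1 and VGF were higher on all FOXC2 arrays, ISL1 was lower, and PCSK1N overlapped.

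Among the 8 measured members, the groups were apart with FOXC2 higher for 6, against 24.9% of all genes, and apart with FOXC2 lower for 1, ISL1, against 23.5% of all genes. Nothing is read from those counts, because this contrast chose the members. A fold of at least 5 was seen for 4 members, DDC, SLC6A4, CHGA and PDX1, and for 27 of the 12562 genes. The median log2 difference over the 8 was 2.40, beside 0.03 over all genes, and the members ran from -1.30 to 3.48. Among the 6 higher members, FOXC2 replicate 2 was the lowest FOXC2 array for 5 and pBabe replicate 2 the highest pBabe array for 5. Leaving out any 1 array kept the direction of those 6 and of ISL1.

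**Figure D2:**
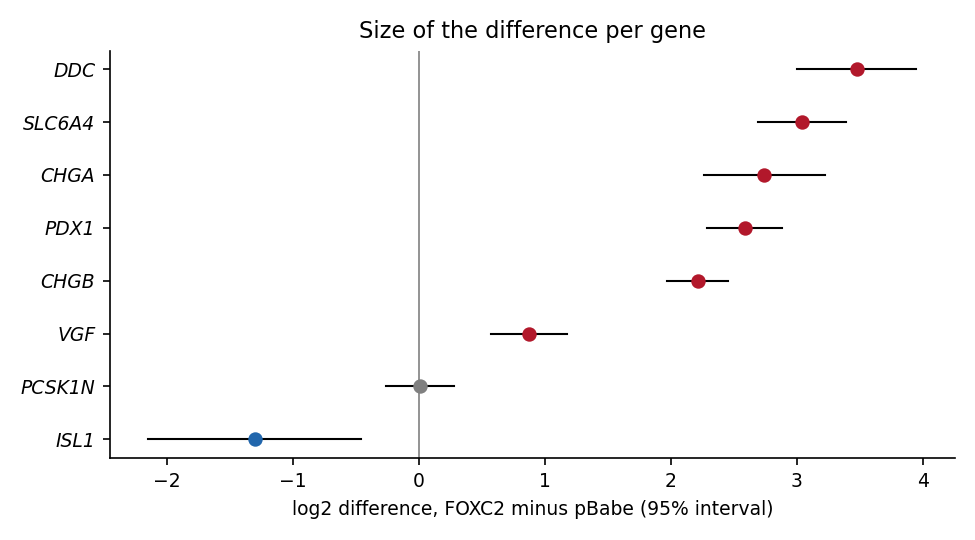
Difference between FOXC2 and pBabe cultures for each measured member, on the log2 scale, where 1 is a 2-fold difference. Points are the fitted differences and lines their 95% confidence intervals (n = 3 arrays per group). DDC stands at 3.48, VGF at 0.87, PCSK1N at 0.01 and ISL1 at -1.30.

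The other genes of these pathways were taken from 8 lists that exclude the members, and were tested in a single limma fit over all features with Benjamini-Hochberg adjustment. Over all genes, 14.1% passed as higher in FOXC2 cultures and 14.3% as lower, and each list is read beside those shares. The lists were drawn up with earlier results of these arrays known, so their counts support no direction on their own.

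Genes for making and breaking down monoamines moved in both directions. Of 15 measured of 29 listed, 8 rose and 3 fell, or 53.3% and 20%, with a median log2 difference of 0.58. Tryptophan hydroxylase (TPH1 and TPH2), which precedes DDC in serotonin synthesis, and the vesicular transporters SLC18A1 and SLC18A2 are not analysed here. The branch to noradrenaline held the largest rise. DBH, dopamine beta-hydroxylase, had intensities of 2833, 2569 and 2595 in FOXC2 cultures, against 914, 1249.5 and 1258 in pBabe cultures. The lowest FOXC2 array of DBH was 2.04-fold above the highest pBabe array, and the log2 difference was 1.24 ± 0.144 (SE; limma adjusted p 0.00152). MOXD1, a copper monooxygenase related to DBH, rose by 0.95 (limma adjusted p 0.0133). TH, tyrosine hydroxylase, was dim, at 189.6, 183 and 165 in FOXC2 cultures, against 90.2, 132 and 126 in pBabe cultures, and rose by 0.64 (limma adjusted p 0.0272), a call lost without any 1 FOXC2 array (0.0538 to 0.0768).

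Tetrahydrobiopterin, the cofactor of the tyrosine and tryptophan hydroxylases, is made in sequence by GCH1, PTS and SPR. Its first and last enzymes rose and the middle one fell. SPR, sepiapterin reductase, had intensities of 11250, 10413 and 10945 in FOXC2 cultures, against 5725, 5273 and 6164.5 in pBabe cultures. It rose by 0.93 ± 0.0948 (SE; limma adjusted p 9.14e-04), and GCH1, GTP cyclohydrolase, rose by 0.80 (limma adjusted p 0.00265). PTS had intensities of 2576, 2737 and 2636 in FOXC2 cultures, against 3990.2, 4266 and 3906 in pBabe cultures. Every FOXC2 array was thus below every pBabe array, and PTS fell by 0.61 ± 0.0843 (SE; limma adjusted p 0.00299). PCBD1, which recycles the cofactor, rose by 0.44 (limma adjusted p 0.0205), a call kept without pBabe replicate 3 (0.0278) and lost without any other single array (0.0506 to 0.0615).

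The monoamine oxidases, which degrade serotonin and catecholamines, went opposite ways. MAOA, the form with the greater preference for serotonin, had intensities of 122, 142 and 97.8 in FOXC2 cultures, against 197.5, 233 and 265 in pBabe cultures. It was dim and fell by 0.95 ± 0.170 (SE; limma adjusted p 0.00835). MAOB had intensities of 621, 756 and 679 in FOXC2 cultures, against 348, 453 and 358 in pBabe cultures. MAOB rose by 0.83 ± 0.135 (SE; limma adjusted p 0.00575). CYB561, the granule membrane protein that feeds electrons to DBH, rose by 0.58 (limma adjusted p 0.00380). SULT1A1, a sulfotransferase of phenols and amines, fell by 0.96 (limma adjusted p 0.00164), although near-identical paralogs may share its probes.

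**Figure D3:**
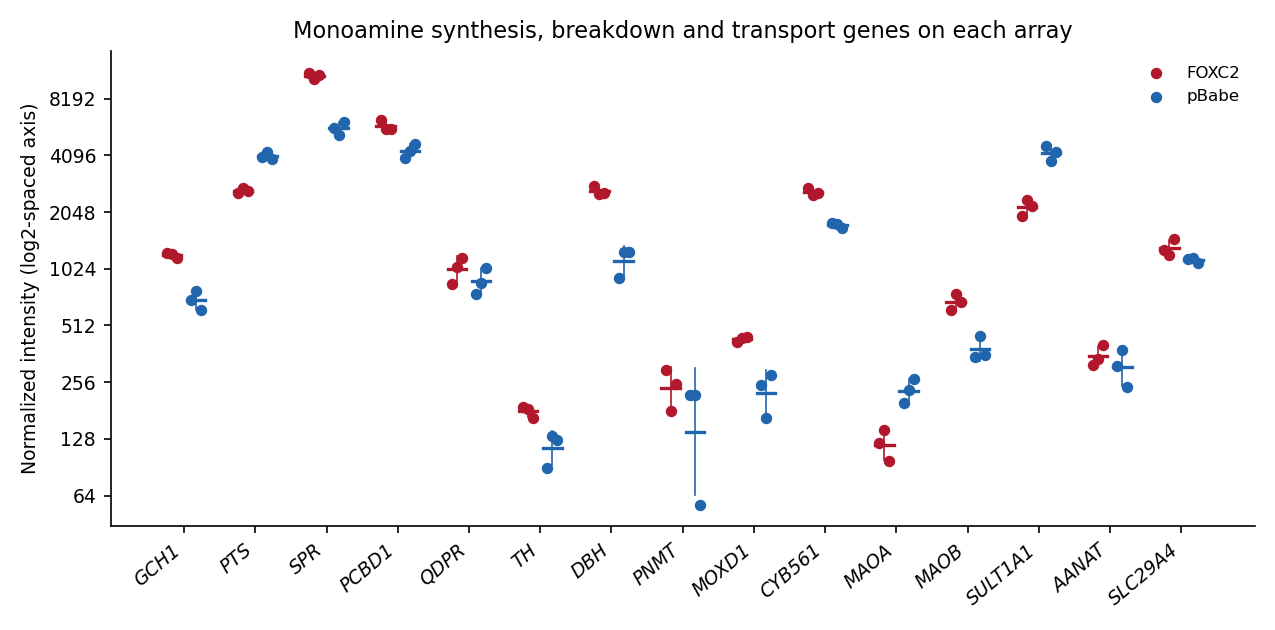
Normalized intensity on every array, on a log2-spaced axis, of the 15 measured genes for synthesis, cofactor supply, breakdown and transport of monoamines, with FOXC2 cultures in red to the left of pBabe cultures in blue. Bars are means and 1 SD of log2 values (n = 3 arrays per group). DBH, SPR, GCH1 and MAOB were higher and PTS, MAOA and SULT1A1 lower in FOXC2 cultures.

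Of 4 measured serotonin receptor genes of 17 listed, 0 rose and 1 fell by limma, and 2 had an unadjusted p under 0.05. HTR3C, a subunit of the serotonin-gated channel, was dim, at 70.5, 71.2 and 70.7 in FOXC2 cultures, against 90.9, 111 and 82.9 in pBabe cultures. Its limma adjusted p was 0.0487, and it no longer passed without any 1 of 5 arrays (0.0888 to 0.119), the exception being pBabe replicate 3 (0.0366).

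Of 24 measured genes of granule biogenesis and prohormone processing among 35 listed, 5 rose and 2 fell, or 20.8% and 8.33%, with a median of 0.07. The main endocrine convertases PCSK1 and PCSK2, the carboxypeptidase CPE and the granin SCG3 are not analysed here. CPZ, a secreted carboxypeptidase, had intensities of 3075, 3216 and 3515 in FOXC2 cultures, against 1564, 1512 and 1542 in pBabe cultures, and rose by 1.08 ± 0.0888 (SE; limma adjusted p 3.71e-04). The convertase PCSK5 rose by 1.05 (limma adjusted p 0.00228), and PCSK6 and FURIN, convertases of the constitutive pathway, rose by 0.70 and 0.36 (limma adjusted p 0.00809 and 0.0240), the call of FURIN being lost without any 1 of 5 arrays (0.0657 to 0.0709) and kept without pBabe replicate 1 (0.0290). PTPRN2, a phosphatase-like protein of the granule membrane, had intensities of 2936, 2811 and 3202 in FOXC2 cultures, against 1594, 1605 and 1707 in pBabe cultures. It rose by 0.87 ± 0.0908 (SE; limma adjusted p 0.00101). RAB3B, a GTPase of secretory vesicles, fell by 0.73 (limma adjusted p 0.00366), and BAIAP3, a protein of dense-core vesicle traffic, fell by 0.61 (limma adjusted p 0.0114). Over all genes 14.1% passed as higher and 14.3% as lower, and nothing about this machinery is read from these counts.

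Of 19 measured peptide hormones and neuropeptides of 40 listed, 1 rose, 2 fell and 16 did not pass, with 5.26% higher and 10.5% lower and a median of 0.03. NMU, the neuromedin U precursor, had intensities of 981, 1238 and 1329 in FOXC2 cultures, against 376, 416 and 365 in pBabe cultures. It rose 3.05-fold (95% confidence interval 2.44 to 3.80; limma adjusted p 4.01e-04). NPPB, the B-type natriuretic peptide precursor, fell by 0.96 (limma adjusted p 0.0227), and UCN, urocortin, by 0.73 (limma adjusted p 0.0476). UCN did not pass without any 1 of the 6 arrays (0.0608 to 0.118), and NPPB passed only without FOXC2 replicate 1 or FOXC2 replicate 3, and otherwise had 0.0580 to 0.0677. The list had 1 passing gene without pBabe replicate 2 or pBabe replicate 3.

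**Figure D4:**
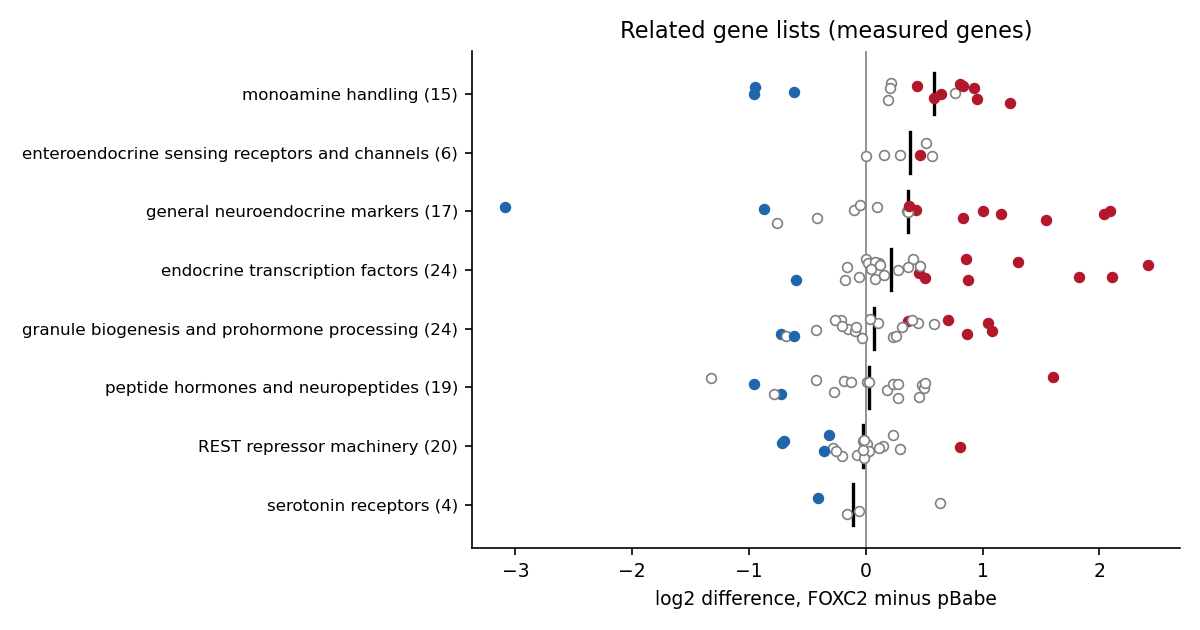
Difference between FOXC2 and pBabe cultures on the log2 scale for every measured gene of the 8 related lists, with the number measured in parentheses. Filled points passed the limma test (red higher, blue lower), open points did not, and black bars are list medians, from 0.58 for monoamine handling to -0.11 for serotonin receptors.

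Of 24 measured transcription factors of endocrine development among 41 listed, 8 rose and 1 fell, or 33.3% and 4.17%, with a median of 0.22. The endocrine factors NEUROD1, INSM1, PAX4, NKX2-2 and RFX6 are not analysed here. FOXA3, a forkhead factor of gut and liver, had intensities of 948, 1439 and 1462 in FOXC2 cultures, against 359, 202 and 182 in pBabe cultures. FOXA3 rose 5.33-fold (95% confidence interval 3.29 to 8.62; limma adjusted p 0.00178). PROX1, a homeodomain factor, had intensities of 1758.5, 1386 and 1079.5 in FOXC2 cultures, against 308, 328 and 326 in pBabe cultures, and rose 4.30-fold (3.22 to 5.74; limma adjusted p 3.92e-04). MYT1, a zinc finger factor that acts in islet cell formation in mouse, rose 3.54-fold (limma adjusted p 0.00108). NEUROG3, the factor that starts endocrine differentiation in gut and pancreas, had intensities of 1681, 1390.5 and 1418 in FOXC2 cultures, against 1050.5, 989 and 1119 in pBabe cultures. Its rise of 0.50 ± 0.109 (SE; limma adjusted p 0.0167) was smaller than the log2 difference of 2.59 of PDX1, and did not pass without pBabe replicate 2 (0.0539). HES1, the NOTCH-driven repressor that holds back endocrine fate, had intensities of 4422, 4226 and 4078 in FOXC2 cultures, against 7035, 6132 and 6105 in pBabe cultures, and fell by 0.60 ± 0.0958 (SE; limma adjusted p 0.00553). FOXA2, a forkhead factor of the endoderm, rose by 0.86 (limma adjusted p 0.00137). GFI1, LMX1B and MNX1 also rose, by 1.31, 0.88 and 0.46 (limma adjusted p 8.84e-04, 0.0132 and 0.0189), and GFI1 and LMX1B were dim. A further 15 measured factors did not pass. Among them were PAX6 (0.36, limma adjusted p 0.0658), FEV (0.12, 0.667), NKX6-1 (-0.16, 0.456) and MAFA (-0.18, 0.475).

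General markers of neuroendocrine tumours moved both ways and held the largest fall of the 8 lists. Of 17 measured of 26 listed, 8 rose and 2 fell, or 47.1% and 11.8%, with a median of 0.36. SYP, synaptophysin, a membrane protein of small vesicles, had intensities of 7432, 7468 and 8056 in FOXC2 cultures, against 1683, 1946 and 1968 in pBabe cultures. SYP rose 4.11-fold (95% confidence interval 3.49 to 4.84; limma adjusted p 5.8e-05). RUNDC3A, a protein of neurons and neuroendocrine cells, rose 4.27-fold (limma adjusted p 7.1e-05), and the somatostatin receptor SSTR5, which was dim, rose 2.91-fold (limma adjusted p 0.00798). NCAM1, the adhesion molecule also known as CD56, had intensities of 87.2, 71.0 and 76.2 in FOXC2 cultures, against 734, 654 and 610.4 in pBabe cultures. NCAM1 fell by 3.09 ± 0.118 (SE; limma adjusted p 3.5e-05), to near the lowest value of the table. ENO2, neuron-specific enolase, fell by 0.87 ± 0.0970 (SE; limma adjusted p 0.00130). Chromogranin A and synaptophysin were thus higher while CD56 and neuron-specific enolase, markers used beside them, were lower in the same cultures.

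Of 6 measured receptors and channels for luminal sensing among 23 listed, 1 rose and 0 fell by limma, and 3 had an unadjusted p under 0.05. FFAR1, a receptor for long-chain fatty acids, rose by 0.47 (limma adjusted p 0.0260). FFAR1 no longer passed without any 1 of 5 arrays (0.0508 to 0.0829), the exception being pBabe replicate 2 (0.0350), and without that array 2 genes of the list passed.

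REST is a zinc finger repressor known for silencing neuronal and neuroendocrine genes outside those tissues. REST had intensities of 424, 489 and 430.2 in FOXC2 cultures, against 608, 561 and 396 in pBabe cultures. The groups overlapped, and its log2 difference of -0.20 ± 0.172 (SE; limma adjusted p 0.425) did not pass; leaving out 1 array gave 0.0640 to 0.783. Of 20 measured genes of REST, its co-repressors and its regulators among 23 listed, 1 rose and 4 fell, or 5% and 20%, with a median of -0.02. The phosphatases CTDSP2 and CTDSPL, which REST recruits and which act on RNA polymerase, fell by 0.72 ± 0.126 (SE; limma adjusted p 0.00759) and 0.70 ± 0.0970 (SE; limma adjusted p 0.00300). CTDSPL had intensities of 7378, 6696 and 6367 in FOXC2 cultures, against 10666, 11810.0 and 10802 in pBabe cultures. RCOR2, a CoREST co-repressor, rose by 0.81 ± 0.164 (SE; limma adjusted p 0.0131). PHF21A and HMG20B, subunits of the complex of CoREST and the demethylase KDM1A, fell by 0.36 and 0.31 (limma adjusted p 0.0399 and 0.0397). Without each array in turn 3 genes of the list passed, and neither PHF21A (0.0580 to 0.118) nor HMG20B (0.0511 to 0.106) was among them.

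The nearest measured genes along the chromosome were read for every member, 2 on each side in RefSeq order, 40 genes in all. Of these, 8 rose and 5 fell, or 20% and 12.5%, beside 14.1% and 14.3% over all genes, and 3 changed at least 2-fold. Those 3 flanked VGF and PDX1. NAT16, next to VGF, had intensities of 6821, 4419.8 and 4526 in FOXC2 cultures, against 1280.0, 1793 and 1932 in pBabe cultures, and rose by 1.65 ± 0.223 (SE; limma adjusted p 0.00282). MOGAT3, a monoacylglycerol acyltransferase just beyond it, had intensities of 2227, 1780.0 and 2211 in FOXC2 cultures, against 534, 526 and 494 in pBabe cultures. MOGAT3 rose by 1.99 ± 0.115 (SE; limma adjusted p 9.9e-05). Both log2 differences were larger than the 0.87 of VGF itself, while AP1S1 and TRIM56 on the other side, at 0.23 and -0.08, did not pass.

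CDX2, the intestinal homeodomain factor that lies beside PDX1 on chromosome 13, had intensities of 3642, 2881 and 3290 in FOXC2 cultures, against 1387, 1316.5 and 1601 in pBabe cultures. It rose by 1.19 (limma adjusted p 0.00103), whereas POLR1D, on the other side of PDX1, fell by 0.43 (limma adjusted p 0.0162) on its brightest feature but had -0.03 (limma adjusted p 0.835) as the mean of its features. On chromosome 7 COBL, an actin nucleator, was the second measured gene beyond DDC and rose by 0.88 (limma adjusted p 0.00256), and GRB10 between them had 0.18 and did not pass. AVEN near SCG5 rose by 0.71 (limma adjusted p 0.00376), and ITGA1 near ISL1 fell by 0.74 (limma adjusted p 0.00389). SHLD1 (0.65), ITPK1 (0.47) and BLMH (0.36) also rose, and HDAC6 (-0.41), ARHGAP11A (-0.39) and PARP8 (-0.31) fell. As the mean of its features, ARHGAP11A had -0.25 (limma adjusted p 0.142). None of the neighbours of SLC6A4, CHGA or CHGB changed as much as 2-fold. The count of 13 passing neighbours was 7 without FOXC2 replicate 2, FOXC2 replicate 3 or pBabe replicate 1, and 8 without pBabe replicate 2. NAT16, MOGAT3, CDX2, COBL, AVEN and ITGA1 passed without each array in turn, and the other 7 did not.

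**Figure D5:**
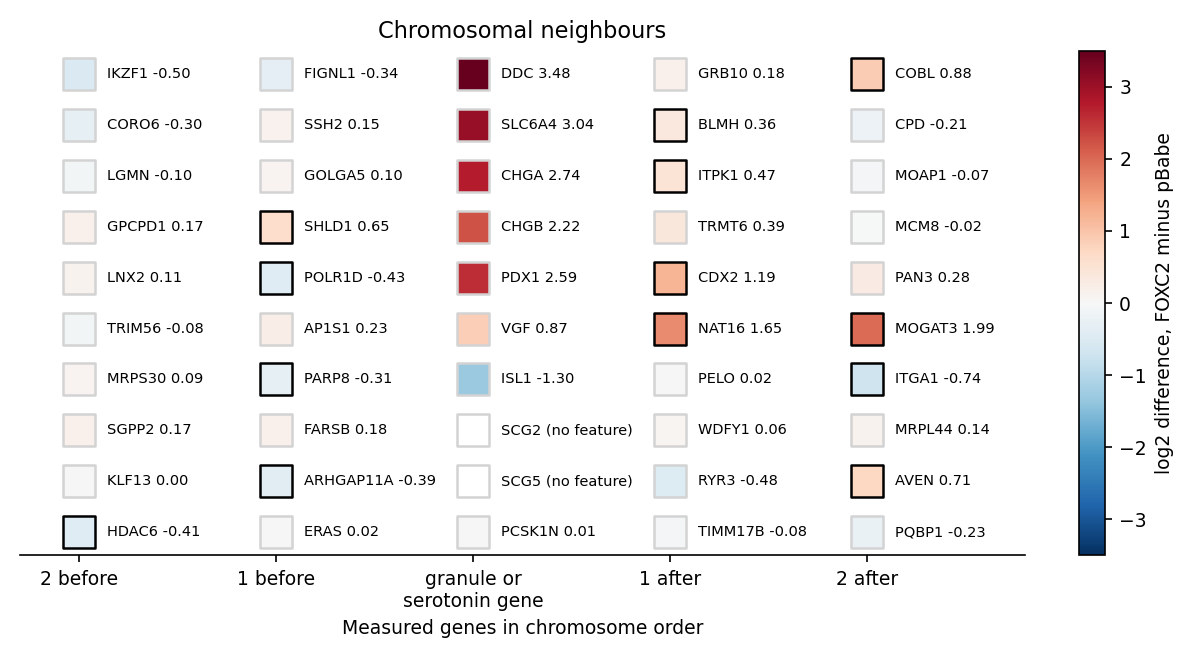
Log2 difference between FOXC2 and pBabe cultures (colour and number) for each of the 10 members and the 2 nearest measured genes on each side, in chromosome order. A black frame marks a neighbour that passed the limma test, and grey frames mark the other genes. SCG2 and SCG5 had no feature with that gene symbol. The members in the middle column were not tested.

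Markers of other cell types were read beside these results and beside the shares over all genes, 14.1% higher and 14.3% lower. Of 5 measured neuronal markers among 13 listed, 3 rose and 1 fell. SYN1, a synaptic vesicle protein, was at 1997, 2235 and 2359.6 in FOXC2 cultures, against 559, 545 and 511 in pBabe cultures, and rose by 2.03 (limma adjusted p 5.8e-05). SLC17A7, a vesicular glutamate transporter, was at 249, 323 and 232 in FOXC2 cultures, against 534, 507 and 433 in pBabe cultures, and fell by 0.88 (limma adjusted p 0.00722). The summed intensity of the 5 was 4813 to 5420 in FOXC2 cultures and 2661 to 3079.5 in pBabe cultures. RBFOX3, NEFL, NEFM, NEFH and MAP2 are not analysed here. Of 7 measured markers of absorptive enterocytes, 3 rose, with sums of 5263 to 6751 in FOXC2 cultures and 3497 to 3547 in pBabe cultures. ANPEP made up most of those sums and was 1 of the 3 that rose (0.81, limma adjusted p 0.00897). For goblet cells, 0 of 4 passed by limma and 0 had an unadjusted p under 0.05. Their sums were 2427 to 2747.5 in FOXC2 cultures and 3001 to 3394 in pBabe cultures. SPDEF made up most of these sums and did not pass (limma adjusted p 0.129), and MUC2, TFF3 and SPINK4 were dim. Of 5 mast cell and platelet markers, other stores of serotonin, 0 passed by limma and 2 had an unadjusted p under 0.05, with sums of 804 to 1069 in FOXC2 cultures and 677 to 793 in pBabe cultures. The part of any other cell type in the differences of the members was not tested.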

How the data were processed

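Total RNA of 6 SW480 cultures was labelled with Cy3 and hybridised to NimbleGen arrays, per the labels' protocols. The authors deposited intensities on a linear scale, made with RMA, whose version is not given in the sources used here, per the submitters' processing notes. RMA makes array distributions alike, so a shift shared by all transcripts would not be seen. Array medians ran from 895 to 913, and 33497 features were analysed, of which 13730 carried 1 symbol in the platform annotation. Each measured member had 1 feature. Other genes used the feature with the highest mean. Replicates correlated at 0.987 to 0.990.

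Values were taken to log2 with no offset and fitted in limma 3.58.1 (R 4.3.3; lmFit, eBayes), FOXC2 minus pBabe, adjusted over all features, with 0.05 as threshold. The steps were tested on simulated data. Members and lists were chosen with earlier results of these data known. Named genes were, per list, up to 3 passing rises and 3 falls, passing neighbours and REST. Named after their values were seen were GCH1, TH, MAOB, CYB561, PCBD1, NEUROG3, FOXA2, HMG20B, PCSK6, FURIN, SYN1, SLC17A7, VIL1, EPCAM, KRT8 and KRT18. So were GFI1, LMX1B, MNX1, ANPEP, PTGS1, POU2F3, TRPA1, GIP and other genes that did not pass. Precision is limited by 3 arrays per group. Gene order and promoters came from RefSeq, GRCh38.p14.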

Additional observations from a re-analysis of the deposited data

How the results depend on the processing

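The settings tried were quantile normalization, median centring, 16 added before taking logs, averaging a gene's features, the replicate number as a block, dim features left out, a trended robust prior, array weights and each array left out in turn. All member differences moved by less than 1 SD, pooled over the replicates of both groups on the log2 scale: DDC between 3.26 and 3.61, CHGA between 2.51 and 2.92, ISL1 between -1.70 and -1.09, and PCSK1N, which changed sign, between -0.05 and 0.09. The median over the members was 2.59 with dim features left out, because ISL1 then drops out.

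Among other named genes, with GFI1, LMX1B and MNX1 not counted, 81 calls were lost over all single-array omissions and 29 under the remaining settings. Of the genes named with values, TRPA1 (-0.22 without FOXC2 replicate 2, range -0.22 to 1.00), GFI1B (-0.11 without pBabe replicate 2, range -0.11 to 0.32) and TRIM56 (0.0029 without pBabe replicate 1, range -0.13 to 0.0029) changed sign over single-array omissions, and none of these had passed. With averaged features the calls of POLR1D (-0.03, limma adjusted p 0.835), ARHGAP11A (-0.25, 0.142) and KRT18 (-0.24, 0.0804) were lost. Counts moved more. With the replicate number as a block, 0 sensing genes, 0 serotonin receptors, 3 genes of the REST list and 6 neighbours passed, with 5960 features in all instead of 8819. Same-numbered arrays did not deviate together (r -0.10, -0.12 and -0.06 across features). With 3 arrays per group this cannot tell whether same-numbered cultures were handled together, and the labels do not say. With dim features left out, 6 neuroendocrine markers, 7 monoamine genes, 1 peptide and 0 serotonin receptors passed, because fewer genes were tested. With the offset or the trended robust prior, 0 serotonin receptors passed. TH was among the calls lost with the trended robust prior (limma adjusted p 0.0610) and with the replicate block (0.0603). Leaving out 1 array gave 0 to 2 sensing genes, 1 to 3 peptides, 3 genes of the REST list, 0 to 1 serotonin receptors, 7 to 11 neighbours and 5752 to 6768 features in all.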

Other observations

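Tuft cells are chemosensory cells of the gut lining. Of 5 measured tuft markers among 10 listed, 2 fell, where 14.3% of all genes passed as lower, and the other 3 did not pass. Of those 3, DCLK1 was higher on all FOXC2 arrays (log2 difference 0.32, limma adjusted p 0.0896; 0.0329 without pBabe replicate 2), GFI1B had 0.08 and AVIL -0.39. PTGS1, cyclooxygenase 1, had intensities of 205, 279.7 and 369 in FOXC2 cultures, against 719, 1228 and 1053 in pBabe cultures, and fell by 1.82 ± 0.268 (SE; limma adjusted p 0.00395). POU2F3, the factor that specifies tuft cells, had intensities of 74.4, 75.0 and 87.9 in FOXC2 cultures, against 179.8, 128 and 241 in pBabe cultures, and fell by 1.17 ± 0.226 (SE; limma adjusted p 0.0113). These genes were chosen after their values were seen.

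FOXC2 replicate 2 stood apart for several dim genes of these pathways, picked here after their values were seen. TRPA1, an irritant-gated channel of enterochromaffin cells, had intensities of 185.5, 918 and 170.4 in FOXC2 cultures, against 216, 184 and 223 in pBabe cultures, and did not pass (limma adjusted p 0.528); without that array its log2 difference was -0.22 instead of 0.57. GIP, the precursor of an incretin hormone, had intensities of 91.0, 238.5 and 65.4 in FOXC2 cultures, against 266, 307 and 275 in pBabe cultures, and did not pass (limma adjusted p 0.0664), although it passed without that array (-1.87, limma adjusted p 0.00191). ISL1 was likewise highest in that FOXC2 culture, at 188. Different arrays stood apart for other dim genes. CALB2, of the neuroendocrine markers, was at 634 in FOXC2 replicate 3, against 87.3 and 251 in the other FOXC2 cultures. PNMT, of the monoamine genes, was at 57.4 in pBabe replicate 3, against 219 and 218.5 in the other pBabe cultures.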
